A study of Mus musculus with 2 samples.

Results

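Fibroblast nuclei marked by C7, Plcxd3, Ccbe1, Scara5 and Clec3b were described in the ascending aorta and aortic arch of mice, in 1 Female and 1 Male library of single nuclei. They were chosen by raw counts of unique molecular identifiers (UMIs) per barcode, among barcodes with at least 300 detected genes. A barcode was taken as a fibroblast nucleus when Pdgfra, Dcn and Col1a2 together had at least 2 UMIs and more than the smooth muscle genes Myh11, Acta2 and Lmod1 together. It was a member when the sum of C7, Plcxd3, Ccbe1, Scara5 and Clec3b was at least 3 and above each of 3 other sums, namely Pex5l, Adamtsl2 and Lsamp, then Dact2, Adamts16, Grm7, Pla1a and Pi16, and then Nlgn1, Chrm2, Tfap2b and Col6a6. The rule found 2932 members, 1204 Female and 1728 Male, among 39516 barcodes (18863 Female and 20653 Male). They are called C7/Scara5 nuclei here. The fibroblast gate held 6921 barcodes, so that 3989 other fibroblast-gated nuclei (1980 Female and 2009 Male) served for comparison. Of these, 674 had the Pex5l, Adamtsl2 and Lsamp sum highest (Pex5l/Lsamp nuclei) and 1277 the Dact2 to Pi16 sum highest (Pi16/Dact2 nuclei).

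All mice carried Wnt1-Cre and the Rosa26-mTmG reporter. Wnt1-Cre acts in the embryonic neural crest, and the reporter gives membrane tdTomato in cells without Cre activity and membrane GFP in cells that had it and in their descendants, so that GFP marks a history of Cre activity. Per the labels, tissue of 6 mice was pooled by sex, with no word on whether each pool or both together held 6, and each pool was divided into technical replicates, which the barcodes do not show; their age is not stated in the labels. In all, 79294181 UMIs were recorded at 18872 Female barcodes and 77989549 at 20659 Male barcodes. C7/Scara5 nuclei had a median of 3740.5 UMIs and 1799 genes in the Female library and 3895.5 UMIs and 1857.5 genes in the Male library, and the other fibroblast-gated nuclei a median of 3606 and 3711 UMIs. The libraries shared 4287 barcode sequences, 13 of them members in both, and the log counts of those 13 pairs correlated with a median r of 0.37. Xist was at 1064 CPM (a gene's UMIs scaled to a common total of UMIs over the nuclei of a group) in Female members and 0.645 CPM in Male members, and the Y gene Uty at 0 and 146 CPM, which matched the labels.

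The outer coat of the aorta, the adventitia, holds fibroblasts that make collagen and elastic fibre proteins and secrete signals to vessel, nerve and lymphatic cells. C7 is a terminal component of complement, the plasma system whose last components assemble into a pore on target membranes. Scara5 is a scavenger receptor that binds ferritin, Ccbe1 is a secreted cofactor of the protease ADAMTS3 in the maturation of the lymphatic growth factor VEGF-C, Clec3b encodes tetranectin, a plasminogen-binding lectin, and Plcxd3 belongs to the phospholipase C family with only the X domain. In many organs of the mouse, fibroblasts around vessels have been grouped into a Pi16-expressing type and a Col15a1-expressing type.

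Promoter letters are shown for a gene of each of the results that follow, taken from RefSeq for GRCm38.p6, each as 250 bases ending at the annotated start. C7 and Plcxd3 are rule genes and neighbours on chromosome 15. Inmt was among the genes most enriched in C7/Scara5 nuclei over the other fibroblast-gated nuclei together, and Mt1 is a metal-binding gene that was lower in the Female library. Of the 5 genes that define the nuclei, 2 were in the promoter table. Capitals mark matches on either strand to TATAAA (the TATA box), CCAAT (bound by the NF-Y factor), TGANTCA (the AP-1 site) or the palindrome bound by steroid receptors (GNACA, 3 free bases and TGTNC), with N for any base; a match describes letters and not a site in use. The windows are chr15:5063774-5064023 on the minus strand for C7, chr15:4375241-4375490 on the plus strand for Plcxd3, chr6:55174991-55175240 on the minus strand for Inmt and chr8:94178839-94179088 on the plus strand for Mt1.
C7: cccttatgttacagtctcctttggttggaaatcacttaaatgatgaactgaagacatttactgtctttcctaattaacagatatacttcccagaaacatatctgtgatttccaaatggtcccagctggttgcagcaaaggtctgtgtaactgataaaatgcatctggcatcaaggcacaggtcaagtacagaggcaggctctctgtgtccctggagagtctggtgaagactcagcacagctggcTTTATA
Plcxd3: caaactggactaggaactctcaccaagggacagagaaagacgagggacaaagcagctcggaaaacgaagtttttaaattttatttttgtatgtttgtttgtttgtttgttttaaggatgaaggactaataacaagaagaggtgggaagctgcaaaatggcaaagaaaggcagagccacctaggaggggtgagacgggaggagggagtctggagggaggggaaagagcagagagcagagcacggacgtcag
Inmt: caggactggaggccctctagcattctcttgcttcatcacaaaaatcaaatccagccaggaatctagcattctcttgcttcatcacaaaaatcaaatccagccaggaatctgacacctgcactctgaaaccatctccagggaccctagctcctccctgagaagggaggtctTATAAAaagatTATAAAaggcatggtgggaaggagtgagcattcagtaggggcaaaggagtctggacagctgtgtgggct
Mt1: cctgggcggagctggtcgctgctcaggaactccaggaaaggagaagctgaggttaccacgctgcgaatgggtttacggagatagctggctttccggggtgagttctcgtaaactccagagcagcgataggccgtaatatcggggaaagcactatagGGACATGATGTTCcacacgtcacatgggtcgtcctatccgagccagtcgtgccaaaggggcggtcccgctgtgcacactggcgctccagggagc
TATAAA occurred in 12.4% of 32851 promoters of this length, CCAAT in 33.8%, TGANTCA in 6.75% and the steroid receptor palindrome in 0.387%. The C7 window has the TATA letters on the other strand 6 bases before the start, the Inmt window has them 80 and 69 bases before it, the Mt1 window has the palindrome 94 bases before it, and the Plcxd3 window has none of these letters.

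The 5 genes that chose the nuclei differed in their contrast with the other fibroblasts; levels are CPM with no adjustment for gene length. C7 (chromosome 15, 4988762 to 5063740) had 906 CPM in Female members, against 39.3 CPM in the other fibroblast-gated nuclei and 11.8 CPM in smooth muscle-gated nuclei, and 2260 CPM in Male members, against 118 and 49.6 CPM. Plcxd3 (chromosome 15, 4375491 to 4575553) had 1489 CPM in Female members, against 192 CPM in other fibroblasts, and 2147 CPM in Male members, against 263 CPM. Ccbe1 (chromosome 18, 66045302 to 66302741) had 1282 CPM against 178 CPM in the Female library and 1141 CPM against 145 CPM in the Male library. These 3 genes had the widest gaps of the 5 in both libraries, and a gap in their sum is what the rule asked for.

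Scara5 and Clec3b were shared with the Pi16/Dact2 nuclei. Scara5 (chromosome 14, 65666403 to 65764826) had 1178 CPM in Female members, against 1210 CPM in Pi16/Dact2 nuclei and 261 CPM in Pex5l/Lsamp nuclei, and 1372 CPM in Male members, against 1225 and 203 CPM. Clec3b (chromosome 9, 123150946 to 123157432) had 618 CPM in Female members, against 796 CPM in Pi16/Dact2 nuclei, and 665 CPM in Male members, against 619 CPM. Both genes are part of the rule, so these levels are a description only.

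At the level of single nuclei, each of the 5 genes was missing from part of the members. At least 1 UMI of Scara5 was found in 80.2% of Female and 82.1% of Male members, against 3.41% and 5.18% of smooth muscle-gated nuclei, a class that should lack it and whose share is taken as background. C7 was found in 43.8% of Female members, against 1.12% of Female smooth muscle-gated nuclei, and in 70.8% of Male members, against 3.5% of Male smooth muscle-gated nuclei. Smooth muscle-gated nuclei had medians of 3961.5 Female and 3228 Male UMIs, close to the depth of the members. All 5 genes were detected together in 16.9% of Female and 28.8% of Male members, and 1 alone in 6.23% and 5.09%.

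**Figure D1:**
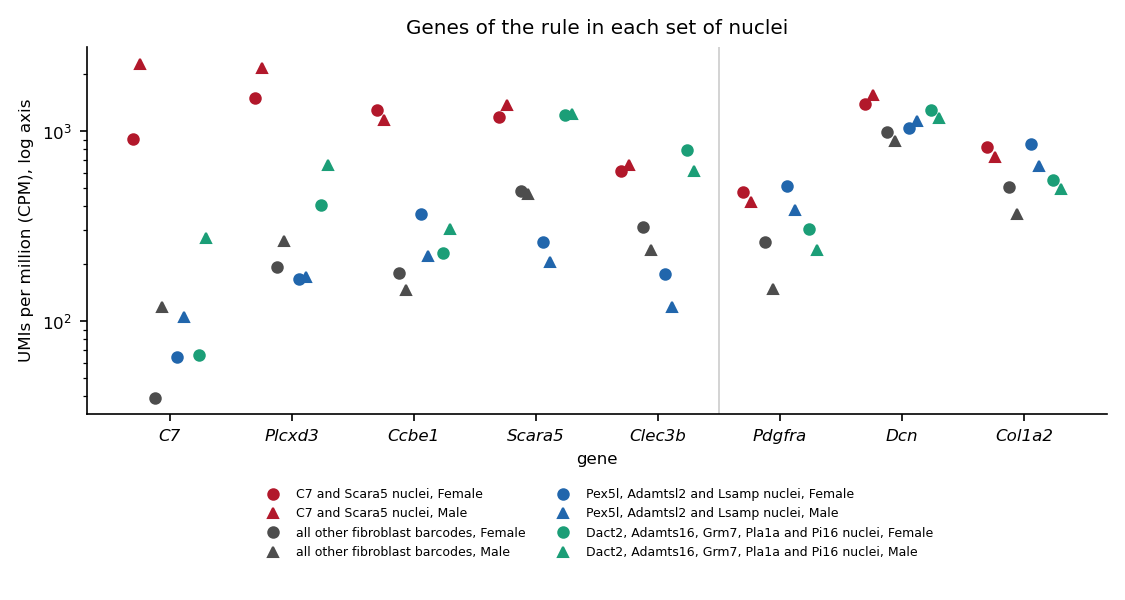
Levels of the 5 genes that chose the nuclei and of the fibroblast genes Pdgfra, Dcn and Col1a2, in CPM on a log axis, in C7/Scara5 nuclei, all other fibroblast-gated nuclei, Pex5l/Lsamp nuclei and Pi16/Dact2 nuclei, with circles for the Female and triangles for the Male library. C7 sits at 906 and 2260 CPM in C7/Scara5 nuclei and at 39.3 and 118 CPM in the other fibroblast-gated nuclei, while Scara5 reaches 1210 and 1225 CPM in Pi16/Dact2 nuclei.

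The members were not uniform in which of the 5 genes had the most UMIs, a count not adjusted for gene length. Ccbe1 had the most UMIs of the 5 in 26.0% of Female members, Plcxd3 in 25.3%, Scara5 in 21.3%, C7 in 12.5% and Clec3b in 7.23%. In Male members C7 led in 28.3%, Plcxd3 in 27.1%, Scara5 in 16.7%, Ccbe1 in 16.3% and Clec3b in 5.03%. C7 and Plcxd3 had the highest correlation of the 10 pairs in both libraries, though a weak one. With each nucleus thinned to 1500 UMIs, C7 was found in 41.9% of Female members with Plcxd3 and in 22.1% of those without it, and in 71.6% and 43.7% of Male members. The correlation of their thinned counts was 0.17 over 1135 Female and 0.24 over 1614 Male members, values over nuclei of 1 library that share depth and free RNA, and Plcxd3 with Ccbe1 had -0.14 and -0.03. The rule also constrains these values, since a nucleus low in all 5 genes is not a member.

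At the edge of the rule, 35 Female and 43 Male members had a sum of exactly 3 UMIs, with a mean fibroblast sum of 6.46 and 4.65 UMIs. Just outside, 38 Female and 36 Male nuclei had a sum of 2 that was above the other 3 sums, with a mean fibroblast sum of 5.18 and 4.33 UMIs. The median sum over all members was 18 UMIs in the Female library (range 3 to 188) and 26 UMIs in the Male library (range 3 to 213). A further 790 Female and 716 Male nuclei had a sum of at least 3 and were not members, because another sum was as high or higher. Few members therefore lie at the count limit.

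Fibroblast markers outside the rule were present in the members, as the name requires. The 10 genes of that list had a summed level of 10006 CPM in Female and 9121 CPM in Male members, against 6145 and 4256 CPM in the other fibroblast-gated nuclei. Markers of the other classes were lower in the members than in the other fibroblasts in both libraries, except for pericyte genes and for Schwann or glial genes, which summed to 45.8 CPM in Female members, against 30.4 CPM in the others, and to 26.96 CPM in Male members, against 20.03 CPM. The 8 vascular endothelial markers summed to 621 CPM in Female members, against 3016 CPM in the others, and to 1040 CPM in Male members, against 4401 CPM, where endothelial-gated nuclei had 9182 and 10216 CPM. Mesothelial markers summed to 104 CPM in Female members, against 304 CPM in the others, and to 228 CPM in Male members, against 543 CPM, and macrophage markers to 102 and 117 CPM in members, against 261 and 251 CPM. In the other fibroblast-gated nuclei, 34.1% of Female and 48.6% of Male nuclei had an endothelial marker sum as high as their own fibroblast sum, against 7.23% and 10.4% of members.

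Pericyte markers summed to 787 CPM in Female members, against 346 CPM in the others, and to 690 CPM in Male members, against 159 CPM, with 1 of the 4 markers at 0 in members of both libraries. Nearly all of that sum was Abcc9, a potassium channel regulatory subunit. Because the comparison fibroblasts hold so many nuclei with markers of another class, the main results against other fibroblasts and by reporter are given a second time without barcodes in which the marker sum of another class (pericytes aside) reached the fibroblast sum, an alternative chosen after seeing the data. It left 1044 Female and 1404 Male members and 1058 and 772 other fibroblast nuclei, called marker-filtered here.

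Members of the rule formed 37.8% of fibroblast-gated nuclei in the Female library (36.1 to 39.5, exact Clopper-Pearson 95% interval, counting error only) and 46.2% in the Male library (44.6 to 47.9). Without C7 in the rule the shares were 35.7% and 41.7%, and among marker-filtered nuclei 49.7% and 64.5%. C7 and Lsamp, which take part in the rule, differed between the libraries, so no difference in abundance is read from these shares.

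Beyond the rule, the genes that most set C7/Scara5 nuclei apart from the other fibroblast-gated nuclei together included the matrix gene Hmcn2, the methyltransferase Inmt and the growth factor gene Gdf10. None of these was 2-fold higher in both libraries than in Pex5l/Lsamp nuclei alone. The log2 ratios over those nuclei were 2.42 and 0.96 for Hmcn2, 1.12 and 0.81 for Inmt, and 0.90 and 0.94 for Gdf10. Of 8379 genes that passed the filter (at least 50 UMIs, and 20 CPM in 1 of the compared groups), 94 were at least 2-fold higher than in other fibroblasts in both libraries (1.12% of genes) and 361 at least 2-fold lower (4.31%), on the log2 scale with 5 CPM added. Among marker-filtered nuclei these numbers were 20 (0.249%) and 69 (0.858%) of 8045 genes, with 14 of the 94 and 17 of the 361 apart again. No test was made, since the nuclei were chosen by their own counts; these genes describe the members in 2 libraries.

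Among the genes higher in C7/Scara5 nuclei, Hmcn2 led the list by the smaller of the library differences. Hmcn2, a hemicentin of the extracellular matrix, had 125 CPM in Female members, against 21.04 CPM in other fibroblasts, and 143 CPM in Male members, against 25.7 CPM (log2 ratio 2.32 and 2.26; 1.68 and 1.19 marker-filtered). Inmt, an amine N-methyltransferase, had 209 CPM against 46.2 CPM in the Female library and 172 CPM against 25.04 CPM in the Male library (2.07 and 2.56; 1.38 and 1.76 marker-filtered). Gpr39, a zinc-sensing receptor, had 1159 CPM in Female members, against 404 CPM in other fibroblasts, and 1177 CPM in Male members, against 301 CPM (1.51 and 1.95; 1.10 and 1.58 marker-filtered), although its gene overlaps Lypd1. All 3 genes remained at least 2-fold higher in both libraries among marker-filtered nuclei.

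Genes of the TGF-beta and BMP family went both ways. Gdf10, a ligand of the family, had 145 CPM in Female members, against 38.3 CPM in other fibroblasts, and 143 CPM in Male members, against 20.4 CPM (log2 ratio 1.79 and 2.54). Chrdl1, a BMP antagonist, had 119 CPM against 46.3 CPM and 133 CPM against 32.5 CPM (1.28 and 1.88). The opposite held for the ligand Bmp6, at 284 CPM in Female members, against 1955 CPM in other fibroblasts, and at 247 CPM in Male members, against 2330 CPM (-2.76 and -3.21), a gene that overlaps Txndc5. All 3 stayed at least 2-fold apart among marker-filtered nuclei. Bmp6 was then at 31.1 CPM against 89.3 CPM in the Female library and 35.5 CPM against 147 CPM in the Male library. Endothelial-gated nuclei had 4758 and 3401 CPM of Bmp6, so that free RNA could give its level in members. Of 28 measured genes of the pathway, 3 were higher and 4 lower in both libraries, with medians of -0.19 and -0.11, beside -0.03 and -0.02 over all genes that passed.

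Vascular and neural signals followed. Angpt4, a ligand of the endothelial receptor Tie2, had 54.4 CPM in Female members, against 12.8 CPM in other fibroblasts, and 55.3 CPM in Male members, against 10.9 CPM (log2 ratio 1.74 and 1.92). Adm, which encodes the vasodilator and lymphatic growth peptide adrenomedullin, had 43.5 CPM against 11.7 CPM and 56.0 CPM against 12.1 CPM (1.54 and 1.83). Ntrk2, the receptor of the neurotrophin BDNF, had 166 CPM against 50.4 CPM and 115 CPM against 35.4 CPM (1.63 and 1.57). Of these, Angpt4 and Ntrk2 stayed at least 2-fold higher in both libraries among marker-filtered nuclei, and Adm was at 1.03 and 0.94. None was 2-fold higher in both libraries than in Pex5l/Lsamp nuclei, with Angpt4 at 0.64 and 0.56, Adm at 0.90 and 2.06 and Ntrk2 at 0.90 and 1.63. Fgf7, a growth factor for epithelia whose gene overlaps Fam227b, Penk, the precursor of enkephalins, Gpnmb, Dner, Ism1, Lgi1 and the homeobox gene Meox2 were also named by rank, at log2 ratios between 1.44 and 2.37; Dner alone of these 7 stayed 2-fold higher in both libraries among marker-filtered nuclei.

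The genes lower in C7/Scara5 nuclei included markers of other classes, 6 of 8 endothelial and 5 of 7 mesothelial markers being at least 2-fold lower in both libraries. The marker-filtered values beside them leave out nuclei by those same markers, so that a smaller gap for such genes is partly fixed by the filter. Emcn, an endothelial surface mucin, had 11.3 CPM in Female members, against 233 CPM in other fibroblasts, and 19.996 CPM in Male members, against 306 CPM (log2 ratio -3.87 and -3.64), and -0.05 and -0.32 among marker-filtered nuclei. Ptprb, an endothelial phosphatase, had 138 CPM against 726 CPM and 213 CPM against 1122 CPM (-2.35 and -2.37), and -0.47 and -0.08 marker-filtered. Of the 12 genes named by rank only Bmp6 and Frzb, a secreted Wnt antagonist, stayed at least 2-fold lower in both libraries among marker-filtered nuclei. Frzb had 4.79 CPM in Female members, against 43.4 CPM in other fibroblasts and 35.4 CPM in Pex5l/Lsamp nuclei, and 6.06 CPM in Male members, against 55.8 and 61.3 CPM. The other 10, which include Nrg1, Thbs1, Otogl, Klhl6 and Unc5d, were not 2-fold lower in both libraries once nuclei with markers of another class were left out.

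**Figure D2:**
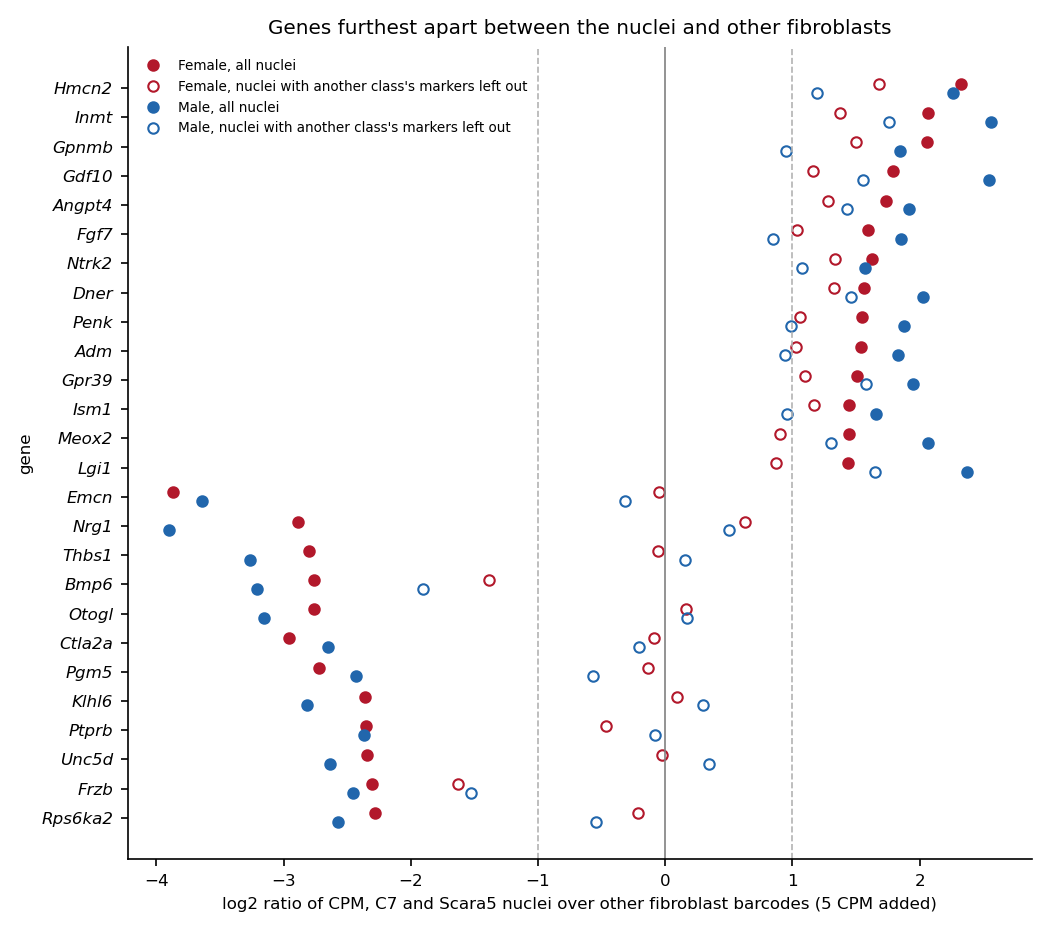
Log2 ratio of C7/Scara5 nuclei over other fibroblast-gated nuclei for the genes named by rank, with 1 point per library and with open symbols for marker-filtered nuclei. Hmcn2 and Inmt stay above 1 in both settings, while Emcn moves to -0.05 and -0.32 and Bmp6 and Frzb stay below -1.

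By gene list, 7 of 14 measured markers of perivascular and Col15a1-type fibroblasts were at least 2-fold higher in both libraries and 0 lower, beside 1.12% of all genes higher. Their medians were 1.07 and 1.39, or 0.43 and 0.48 among marker-filtered nuclei, where 2 of 14 were higher, Inmt and Gdf10. General fibroblast markers outside the rule had medians of 0.74 and 1.18, with 3 of 10 higher. Col15a1 itself was not among those higher, at 85.97 CPM in Female members, against 105 CPM in other fibroblasts and 314 CPM in Pex5l/Lsamp nuclei, and 55.2 CPM in Male members, against 44.3 and 244 CPM, and at -0.94 and -0.75 among marker-filtered nuclei. The 7 were Inmt, Gdf10, Penk, the ectonucleotidase Entpd2, the globin Cygb, the matrix protein Smoc2 and the lipid transporter Abca8a. Abca8a was at 3271 CPM in Female members, against 1575 CPM in other fibroblasts, and 2758 CPM in Male members, against 827 CPM. In Pex5l/Lsamp nuclei it was at 4049 and 3317 CPM, above the members in both libraries. Markers of the Pi16 type had 0 of 13 higher and 2 lower, Limch1 and the peptidase Dpp4, with medians of -0.41 and -0.14. Among marker-filtered nuclei 7 of 15 were lower, with medians of -1.03 and -0.93, a direction that is not independent of the rule, since the rule set Pi16 against the members.

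No other gene of the complement list was 2-fold higher in both libraries, a count near the share of all genes. Of 16 other measured genes of the list, which also holds C1qtnf1, C1qtnf2 and C1qtnf7, 0 were higher and 1 was lower. Of all genes 1.12% were higher and 4.31% lower. The list medians were 0.54 and 0.28, and Serping1 (0.95 and 1.11) and Cfb (1.09 and 0.87) were 2-fold higher in 1 library each. The lower gene was the regulator Clu, at 86.0 CPM in Female members, against 417 CPM in other fibroblasts, and 144 CPM in Male members, against 503 CPM. Clu was at 0.01 and 0.07 among marker-filtered nuclei. C3, the central component, was found at 559 CPM in Female and 653 CPM in Male members, but was not 2-fold apart from the others. C6, which acts beside C7 in the pore, was near 0, with 0.574 CPM in Female and 3.74 CPM in Male members. Among marker-filtered nuclei C2 was higher (1.23 and 1.19) and the regulator Cd55 lower (-1.67 and -1.69).

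The lists of lymphatic growth and iron handling genes held some genes apart, beside 1.12% of all genes higher and 4.31% lower. Of 14 lymphatic growth genes, Adm and Svep1, a large adhesion protein of the matrix, were higher, and the ephrin Efnb2 and the VEGF-C receptor Flt4 lower. Vegfc (log2 ratio 0.78 and 0.50) and Adamts3 (0.40 and 0.92), the genes of the step that Ccbe1 serves, were not 2-fold apart in either library. Svep1 had 603 CPM in Female members, against 260 CPM in other fibroblasts, and 617 CPM in Male members, against 178 CPM (1.20 and 1.76, or 0.63 and 0.97 marker-filtered). Pex5l/Lsamp nuclei had 581 and 584 CPM of Svep1, near the level of members. Of 12 iron handling genes Steap4, a metalloreductase, was higher, at 41.4 CPM against 15.6 CPM and 40.0 CPM against 16.1 CPM, and 0 were lower. Pex5l/Lsamp nuclei had 22.1 CPM (Female) and 43.2 CPM (Male) of Steap4, the latter above the Male members. Neither list held a gene at least 2-fold apart in both libraries among marker-filtered nuclei.

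Few structural matrix genes were 2-fold apart in both libraries, beside 1.12% of all genes higher and 4.31% lower. Of 22 collagen genes 0 were higher and 0 lower, and of 19 elastic fibre genes Fbln1 alone was higher, at 418 CPM in Female members, against 199 CPM in other fibroblasts, and 371 CPM in Male members, against 133 CPM. Of 29 proteases and inhibitors 1 was higher, Mmp3 (99.4 CPM against 34.0 CPM, and 118 CPM against 35.4 CPM), and of 19 proteoglycans Ogn was higher and Srgn lower. Pex5l/Lsamp nuclei had 108 and 173 CPM of Mmp3, above the members in both libraries. Their Fbln1 level was 340 and 268 CPM, within 2-fold of the members. Fbln1, Mmp3, Ogn and Srgn were not 2-fold apart in both libraries among marker-filtered nuclei, where 2 of 20 elastic fibre genes were lower, Fbn1 and Ltbp2. The cytokine lists added Kitl, the ligand of the receptor Kit, at 290 CPM in Female members, against 99.2 CPM in other fibroblasts, and 133 CPM in Male members, against 59.7 CPM, and Il1r1, the interleukin-1 receptor. Kitl and Il1r1 were at 1.54 and 1.79 and at 1.11 and 0.997 among marker-filtered nuclei.

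Signals of patterning went both ways, beside 1.12% of all genes higher and 4.31% lower. Wnt5a, a secreted Wnt ligand, had 289 CPM in Female members, against 108 CPM in other fibroblasts, and 175 CPM in Male members, against 50.2 CPM, and Sfrp4 was higher too, while Frzb and the receptor Fzd6 were lower, of 23 Wnt genes. Pex5l/Lsamp nuclei had 223 and 135 CPM of Wnt5a, within 2-fold of the members. Among 26 axon guidance genes Slit3, a ligand of Robo receptors, had 5321 CPM in Female members, against 2374 CPM, and 5229 CPM in Male members, against 2126 CPM, and with Ephb2 was 2-fold higher, while Plxna4, Sema3e, Plxnd1 and Sema3f were lower. Of these 6 Sema3e alone stayed 2-fold apart in both libraries among marker-filtered nuclei (-1.98 and -2.24), with Slit3 at 0.67 and 0.65 and Ephb2 at 0.78 and 1.04. Wnt5a (0.83 and 1.10) and Sfrp4 (0.51 and 0.29) did not stay so either. Of 48 transcription factors Meox2 and Prrx1 were higher and Isl1, Gata4 and Sox6 lower, none of which stayed 2-fold apart in both libraries among marker-filtered nuclei. Both pericyte genes that passed were higher, Abcc9 at 747 CPM in Female members, against 325 CPM, and 643 CPM in Male members, against 147 CPM, and its channel partner Kcnj8 at 37.7 CPM against 14.9 CPM and 42.8 CPM against 10.5 CPM; in Pex5l/Lsamp nuclei Abcc9 had 750 and 551 CPM, within 2-fold of the members. Among marker-filtered nuclei neither was 2-fold higher in both libraries, with Abcc9 at 0.53 and 1.08 and Kcnj8 at 0.74 and 1.21. The other pericyte markers, Rgs5 and Higd1b, did not pass the filter. Rgs5 had 1.72 CPM in Female members, against 5.85 CPM, and 4.64 CPM in Male members, against 2.45 CPM. Higd1b had 0 CPM in members of both libraries.

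Set against each of the other fibroblast types, the members shared different genes with each. Over Pex5l/Lsamp nuclei 115 of 8415 genes were 2-fold higher (1.37%) and 127 lower (1.51%), and over Pi16/Dact2 nuclei 157 of 8289 were higher (1.89%) and 142 lower (1.71%). Of the 94 genes above, 18 were also 2-fold higher than in Pex5l/Lsamp nuclei, 48 than in Pi16/Dact2 nuclei, and 4 than in both. Among these were Dner, Kitl and the gene model Gm15958, named here after their values were seen. Gpr39 showed another pattern, with 1037 and 911 CPM in Pex5l/Lsamp nuclei, near the level of members, and 183 and 175 CPM in Pi16/Dact2 nuclei. Pi16/Dact2 nuclei exceeded the members in Dpp4 (106 CPM in Female members, against 553 CPM, and 120 CPM in Male members, against 506 CPM), the semaphorin Sema3c (358 against 1936 CPM and 422 against 1481 CPM) and fibrillin Fbn1 (470 against 1820 CPM and 927 against 2702 CPM).

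No other measured gene around C7 and Plcxd3 was 2-fold higher in the members in both libraries. Plcxd3 and C7 lie 413 kb apart with C6 and Mroh2b between them, and 13 protein-coding genes, the pair included, lie within 1 Mb of them. Of the 8 that passed the filter and are not in the rule, 0 were 2-fold higher in members and 1 was lower. Of all genes 1.12% were higher and 4.31% lower, so that 0 of 8 higher is near that share and does not set the region apart. The lower gene was the prostaglandin receptor Ptger4, at 8.62 CPM in Female members, against 25.9 CPM in other fibroblasts, and 9.55 CPM in Male members, against 29.1 CPM. The nearest passing gene on the far side of Plcxd3, Oxct1, a ketone body enzyme, had 317 CPM against 204 CPM and 241 CPM against 155 CPM.

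Between the libraries, C7/Scara5 nuclei of the Female pool had less C7 and less Zbtb16 than those of the Male pool. With 1 library per sex there is no replicate check and no test, so that differences are between these libraries, and the intervals cover counting error only. Of 7788 genes, 20 were at least 2-fold higher in Female members (0.257%) and 44 at least 2-fold lower (0.565%), and 20 of the 20 and 43 of the 44 had the same sign in the other fibroblast-gated nuclei. C7 had 906 CPM in Female and 2260 CPM in Male members, a ratio of 0.401 (0.388 to 0.414), while Plcxd3 had 0.694, Scara5 0.859, Clec3b 0.930 and Ccbe1 1.12. C7 thus differed more than any of the 4 genes used beside it, and it was also lower in the Female library in the other fibroblasts, at 39.3 CPM against 118 CPM. C7 is part of the sum that divides members from others, so its level in both groups is shaped by the rule. Smooth muscle-gated nuclei, taken as background above, had 11.8 CPM in the Female and 49.6 CPM in the Male library. Free RNA could be part of the level in the others, which was not tested.

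Genes known to respond to glucocorticoids were lower in the Female library as a list. All 15 measured genes of the list were below 0, beside 3996 of 7769 genes outside the rule, and 6 were at least 2-fold lower, beside 0.565% of all genes. The list was chosen with earlier results of these data known, so these counts are a description and no independent support. The median log2 ratio was -0.78 in members and -0.60 in other fibroblasts, beside -0.01 over all genes in members. Zbtb16, a zinc finger repressor, had 406 CPM in Female and 1582 CPM in Male members (ratio 0.257, 0.245 to 0.269). Fkbp5, a co-chaperone of the glucocorticoid receptor, had 242 and 695 CPM (0.348, 0.327 to 0.370). The metallothioneins Mt2 and Mt1 had 14.6 and 34.1 CPM in Female members, against 50.1 and 75.3 CPM in Male members, Tsc22d3 23.0 CPM against 63.6 CPM, and the lipase inhibitor Angptl4 9.38 CPM against 35.0 CPM. The receptor gene Nr3c1 itself was at 349 CPM in Female and 254 CPM in Male members. Of the 15 genes of the list found in the promoter table, 1 had the steroid receptor palindrome, Mt1, whose window is printed above.

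Clock genes were split. Of 15 measured members 11 were above 0 and 4 below 0, with a median of 0.37, or 0.21 in the other fibroblasts. Arntl, which drives the loop, had 4.79 CPM in Female and 22.4 CPM in Male members, and its partner Npas2 28.3 and 81.8 CPM. Per3, a repressor of the loop, had 233 CPM in Female and 142 CPM in Male members, and the output factor Dbp 131 and 86.0 CPM. The time of collection of either pool is not stated in the labels.

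The genes higher in Female members were led by Ano4, an anoctamin. Ano4 had 69.1 CPM in Female and 6.32 CPM in Male members (log2 ratio 2.71, and 1.93 in other fibroblasts). Postn, a matricellular protein, had 85.8 and 29.8 CPM (1.38), Angpt2, a Tie2 ligand that overlaps Mcph1, 49.97 and 16.13 CPM (1.38), and the interleukin receptor subunit Il4ra 43.3 and 16.1 CPM (1.19). The synaptic gene Rims1, Myo16, the cadherin Cdh12, Lsamp and the protease Pappa were also named, at log2 ratios between 1.10 and 1.34.

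Beside Zbtb16, C7, Fkbp5, Mt2, Angptl4 and Npas2, the genes named as lower in Female members were Shisa9 (25.1 and 100 CPM), L3mbtl4 (6.32 and 30.2 CPM), the lubricant Prg4 (17.8 and 55.2 CPM) and complement C4b (106 and 273 CPM), whose near-identical copy C4a makes its count uncertain. L3mbtl4 differed little in the other fibroblasts together (-0.26), where its level was low, at 6.10 and 8.27 CPM. In Pex5l/Lsamp nuclei it was also lower in the Female library, at 9.39 CPM against 30.0 CPM (-1.28). The endothelial marker genes were themselves lower in Female members, 6 of 6 below 0 with a median of -0.47, and mesothelial genes 4 of 4 below 0 with a median of -0.96; their part in the difference between the libraries was not tested. Of the 44 lower genes, 9 were at so low a level beside their highest class that free RNA could give them.

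**Figure D3:**
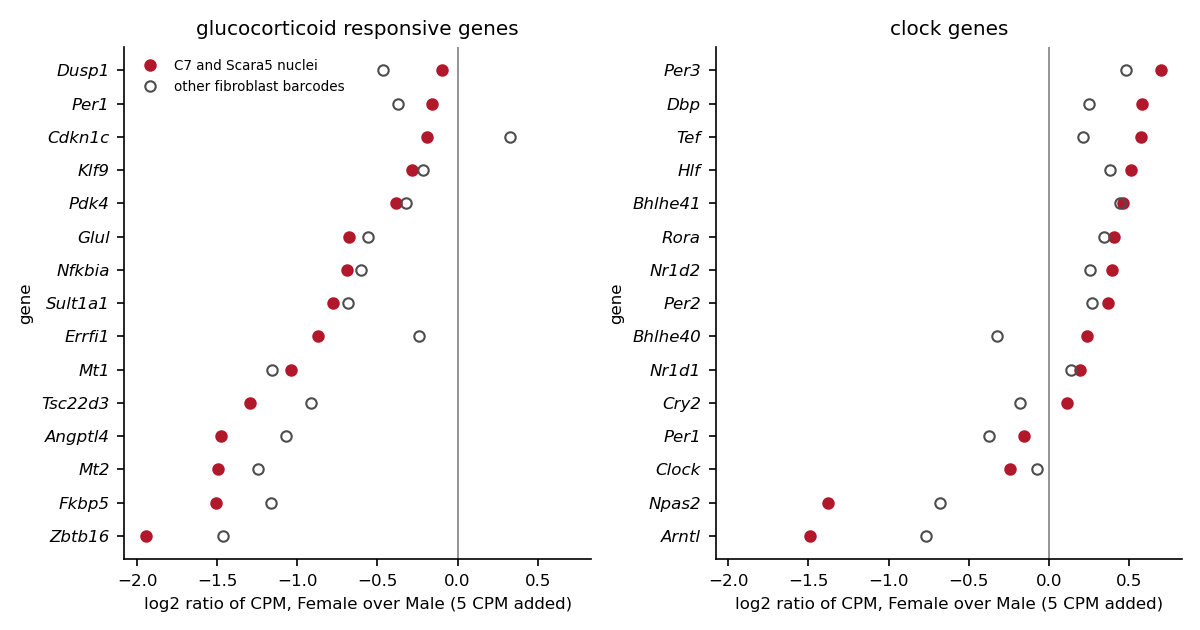
Log2 ratio of Female over Male CPM (5 CPM added) for each measured gene of the glucocorticoid responsive and clock lists, with filled points for C7/Scara5 nuclei and open points for other fibroblast-gated nuclei. All 15 glucocorticoid responsive genes lie below 0 in C7/Scara5 nuclei, with Zbtb16 lowest at -1.95, while 11 of 15 clock genes lie above 0.

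Most reporter UMIs in C7/Scara5 nuclei were of GFP, the label of Wnt1-Cre descendants. GFP made up 60.1% of GFP and tdTomato UMIs in Female members (56.5 to 63.6) and 58.4% in Male members (55.5 to 61.2), against 35.8% and 28.2% in the other fibroblast-gated nuclei. Among marker-filtered nuclei GFP made up 68.2% (64.2 to 72.1) in Female and 70.5% (67.1 to 73.7) in Male members, against 58.8% (54.7 to 62.8) and 59.3% (54.5 to 64.0) in the other fibroblasts. The gap narrowed but the intervals of the 2 groups did not overlap in either library. The level of GFP itself was alike in these marker-filtered groups, at 90.0 CPM in Female members, against 90.4 CPM, and 95.2 CPM in Male members, against 95.7 CPM. It was tdTomato that differed, at 41.9 CPM in Female members, against 63.3 CPM, and 39.9 CPM in Male members, against 65.7 CPM. The intervals cover counting error only, with UMIs pooled over the nuclei of each library. Their separation is a description and does not test a difference between the groups. Pex5l/Lsamp nuclei had 50% and 55.8%, or 58.1% (50.8 to 65.2) and 63.3% (54.1 to 71.9) marker-filtered, which overlap the intervals of the members, and Pi16/Dact2 nuclei 47.9% and 45.3%, or 54.9% and 59.6% marker-filtered.

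For scale, smooth muscle-gated nuclei had GFP shares of 54.6% (Female) and 53.7% (Male), and endothelial-gated nuclei 16.5% and 16.0%. GFP itself was at 147 and 175 CPM in smooth muscle-gated nuclei, 58.1 and 57.1 CPM in endothelial-gated nuclei, and 85.6 and 89.0 CPM in members. Both reporters were found in every class gated, so free reporter RNA may be part of each share. Within the members, nuclei led by Plcxd3 had 70.8% GFP in the Female library (64.1 to 76.8) and 63.1% in the Male library (57.7 to 68.3), against 51.1% (43.5 to 58.8) and 49.0% (40.9 to 57.2) in nuclei led by Ccbe1. The shares were 56.1% Female and 63.1% Male in nuclei led by Scara5, 54.2% and 54.96% in those led by C7, and 69.5% (56.1 to 80.8) and 51.2% (35.5 to 66.7) in those led by Clec3b, the group with the fewest reporter UMIs. These groups are split by genes of the rule and are given as a description. Endothelial markers summed to 642 and 865 CPM in the nuclei led by Plcxd3 and to 574 and 855 CPM in those led by Ccbe1.

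**Figure D4:**
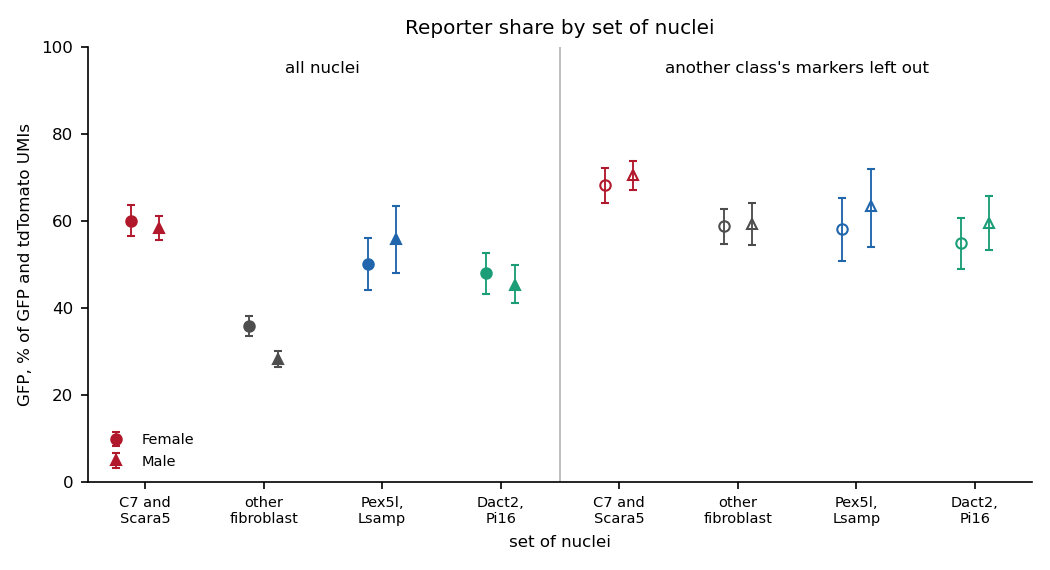
Share of GFP among GFP and tdTomato UMIs, in percent, in C7/Scara5 nuclei, other fibroblast-gated nuclei, Pex5l/Lsamp nuclei and Pi16/Dact2 nuclei, with 1 point per library, exact 95% intervals for counting error, and open symbols for marker-filtered nuclei. C7/Scara5 nuclei sit at 60.1% and 58.4%, and at 68.2% and 70.5% marker-filtered, above each of the other groups.

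Members with GFP UMIs only (235 Female and 323 Male) were compared with members with tdTomato UMIs only (151 and 210). The comparison used edgeR's quasi-likelihood test on the 4 sums with library as a block. GFP-only nuclei made up 19.5% of Female and 18.7% of Male members, and tdTomato-only nuclei 12.5% and 12.2%. Any reporter UMI sufficed, and endothelial-gated nuclei had 58.1 (Female) and 57.1 CPM (Male) of GFP. Free reporter RNA may thus have placed some nuclei in a group, and its part was not tested. The p-values rest on the spread between 2 libraries, which also differ in sex. The GFP-only members had less of the endothelial markers, 320 CPM (Female) and 593 CPM (Male), against 1468 and 1915 CPM in tdTomato-only members, and less of the mesothelial markers, 38.3 and 103 CPM against 195 and 450 CPM. Smooth muscle markers were level, at 322 and 387 CPM against 332 and 358 CPM. Of 9713 genes, 120 were higher (1.24%) and 326 lower (3.36%) in GFP-only members at a Benjamini-Hochberg adjusted p of 0.05; among marker-filtered nuclei 71 (0.862%) and 78 (0.947%) of 8235 were, 50 of the 120 and 42 of the 326 among them. DESeq2 called 8 and 80 genes, and 30 and 97 were called without doublets. Those called in all of these settings were 8 genes higher in GFP-only members (Abcc9, Abi3bp, Cdh12, Epha3, Esrrg, Igfbp4, Stk32a and Plcxd3, which the rule used) and 15 lower, among them Bmp6, Bmx, Hmcn2, Mgp, Pkhd1l1 and Plxna4. Plcxd3 helped to choose the members, so its call is a description only. Among genes outside the rule, before the marker filter, 113 of 9692 were higher and 326 lower.

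Stk32a, a serine/threonine kinase, had the largest rise among the genes named by p. It had 86.4 CPM in Female and 89.3 CPM in Male GFP-only members, against 5.23 and 14.1 CPM in tdTomato-only members, a log2 ratio of 3.10 ± 0.32 (SE; edgeR adjusted p = 1.56e-07), and 3.45 among marker-filtered nuclei. The same contrast was found in other fibroblasts, with 66.0 and 87.9 CPM in GFP-only against 5.38 and 4.08 CPM in tdTomato-only nuclei. Esrrg, an orphan nuclear receptor, had 779 and 465 CPM in GFP-only members, against 288 and 229 CPM in tdTomato-only members (1.25 ± 0.15, edgeR adjusted p = 1.25e-06; 1.85 marker-filtered). Both genes were thus higher in GFP-only members in both libraries and in both settings.

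Genes of channels, adhesion and growth factor binding followed. Epha3, an ephrin receptor, had 796 and 607 CPM in GFP-only members, against 408 and 303 CPM in tdTomato-only members (log2 ratio 1.003 ± 0.14, edgeR adjusted p = 1.17e-05). Abcc9, the channel subunit named above, had 808 and 721 CPM against 479 and 345 CPM (0.93 ± 0.14), the matrix protein Abi3bp 893 and 788 CPM against 509 and 410 CPM (0.90 ± 0.13), and Igfbp4, an IGF-binding protein, 677 and 781 CPM against 364 and 448 CPM (0.87 ± 0.14). Stk32b, a relative of Stk32a, had 103 and 105 CPM against 35.3 and 42.4 CPM (1.43 ± 0.22), but did not pass with DESeq2. Plcxd3 had 1820 and 2892 CPM in GFP-only members, against 1227 and 1160 CPM; it is a rule gene, and no p is given for it. These genes kept their sign among marker-filtered nuclei, at log2 ratios between 0.71 and 1.06.

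Bmp6, the BMP ligand described above, had the smallest p of the genes lower in GFP-only members. Bmp6 had 65.0 and 81.3 CPM in GFP-only members, against 887 and 581 CPM in tdTomato-only members (log2 ratio -3.25 ± 0.18, edgeR adjusted p = 2.37e-12; -1.86 marker-filtered). Bmx, a tyrosine kinase, had 28.5 and 30.0 CPM against 284 and 268 CPM (-3.20 ± 0.20; -2.33 marker-filtered), and Pkhd1l1 30.3 and 49.3 CPM against 164 and 272 CPM (-2.42 ± 0.20; -2.40 marker-filtered). Plxna4, a semaphorin receptor, had 143 and 193 CPM against 497 and 651 CPM (-1.75 ± 0.15; -0.89 marker-filtered). Of the other classes gated, endothelial nuclei had the highest levels of Bmp6 (4758 and 3401 CPM) and Bmx (1577 and 1267 CPM). Free RNA could therefore give the levels of both genes in members. Mesothelial nuclei had the highest levels of Pkhd1l1 (1348 and 1267 CPM) and Plxna4 (2861 and 2632 CPM). The part of these classes in the differences was not tested. All 4 genes passed again among marker-filtered nuclei. The endothelial genes Ptprb and Vwf and the cytokine-like gene Cytl1 did not, at edgeR adjusted p of 0.102, 0.89 and 0.498, and Muc16, a mesothelial mucin, was not tested there.

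Among the genes higher in members than in the other fibroblast-gated nuclei, Hmcn2 went against the reporter. It had 52.5 and 56.0 CPM in GFP-only members, against 135 and 154 CPM in tdTomato-only members (log2 ratio -1.39 ± 0.20, edgeR adjusted p = 2.00e-05; -1.85 marker-filtered). The Hox gene Hoxb4 had 19.6 and 22.6 CPM against 77.2 and 42.4 CPM (-1.39 ± 0.31, edgeR adjusted p = 0.00414; -1.64 marker-filtered). By list, 5 of 25 axon guidance genes were higher and 6 lower, against 4 and 2 of 22 among marker-filtered nuclei, beside 1.24% of all genes higher and 3.36% lower, or 0.862% and 0.947% marker-filtered. Of 28 proteases and inhibitors 6 were higher and 0 lower (2 and 0 of 26 marker-filtered), and of 50 transcription factors 3 were higher and 6 lower (2 and 4 of 45 marker-filtered). Of 7 endothelial markers 5 were lower with a median of -1.73 (-0.43 and 0 of 5 lower marker-filtered). The median over all genes was 0.01. Hmcn2 passed in all of the settings above, while Hoxb4 passed among marker-filtered nuclei but not in all of the others.

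**Figure D5:**
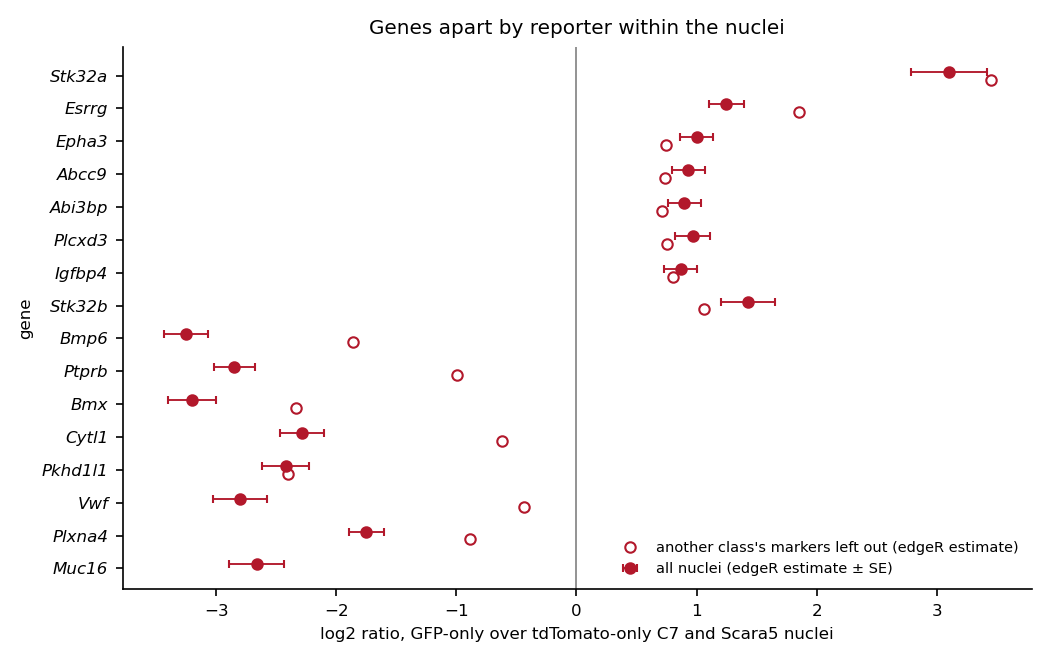
Log2 ratio of GFP-only over tdTomato-only C7/Scara5 nuclei for the genes named by p, with SE bars from edgeR and open circles for marker-filtered nuclei, where Muc16 was not tested. Stk32a lies at 3.10, Bmp6 at -3.25, and Vwf moves to -0.43 among marker-filtered nuclei.

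The reporter difference was then set against that in the other fibroblasts by an interaction term over 8 sums. Of 12776 genes, 4 had a higher ratio in members than in others (0.0313%) and 56 a lower one (0.438%) by edgeR's quasi-likelihood test, and 73 and 201 did when called doublets were left out. Lvrn, an aminopeptidase, had 140 and 168 CPM in GFP-only members, against 242 and 282 CPM in tdTomato-only members, but 245 and 434 CPM in GFP-only other fibroblasts, against 87.1 and 134 CPM (interaction -2.33, edgeR adjusted p = 0.00241). Fgf10, a growth factor made by mesenchyme, had 158 and 150 CPM against 75.9 and 106 CPM in members, and 107 and 132 CPM against 17.9 and 17.4 CPM in the others (-1.97, edgeR adjusted p = 0.0161). Among marker-filtered nuclei 1 gene passed upward and 0 downward, with 487 genes at an unadjusted p under 0.05, and neither Lvrn nor Fgf10 passed; nor did they without the library block. Lvrn ran in opposite directions in the 2 fibroblast groups, while Fgf10 was higher in GFP-only nuclei of both. The other fibroblasts differed in make-up by reporter, with endothelial markers at 1222 and 2364 CPM in GFP-only and 4881 and 6098 CPM in tdTomato-only nuclei. They also mix types, with Lvrn at 448 and 543 CPM in Pi16/Dact2 nuclei and at 24.9 and 177 CPM in Pex5l/Lsamp nuclei. The part of this make-up in the interaction was not tested.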

How the data were processed

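The authors deposited 1 matrix of raw UMI counts for each library, and no scaling of these counts is recorded. Cell Ranger 7.0.0 wrote them, per the file headers. The submitters' processing notes also name STAR, Seurat 4.4.0 and the build GRCm38; whether intronic reads and strand were used is not given in the sources used here, so a gene that overlaps another is uncertain. Each of 54754 features was used as deposited, and 54723 were placed on GRCm38 by Ensembl identifier.

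UMIs were summed over nuclei per library and group and scaled to CPM, and log2 ratios were taken after adding 5 CPM. Genes with at least 50 UMIs over the groups compared and 20 CPM in 1 of them were kept, and a gene was called apart at 2-fold or more the same way in both libraries. Members and other fibroblast nuclei, and the sexes, were compared by size alone: the nuclei were chosen by their own counts, and there is 1 library per sex. Reporter sums (genes with at least 50 UMIs) were tested with edgeR 4.0.16 (quasi-likelihood, TMM, library as a block) in R 4.3.3, with DESeq2 1.42.0 as an alternative and adjusted p under 0.05 as the threshold; the code was tested on simulated data. Nothing says that nuclei of a pool came from separate preparations, so p-values measure only the spread between these libraries, which may be technical.

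The members and gene lists were chosen with earlier results of these data known. Genes named in the text were the first 15 higher and 12 lower by the smaller of the 2 library ratios, the first 10 each way between the sexes among autosomal genes, the first 8 each way by p for the reporter, the first 4 for the interaction, up to 4 genes per list, the genes of the rule and those within 1 Mb of C7 and Plcxd3; genes named beyond these are examples chosen after their values were seen. Some genes that the rule names are not reported here. Doublets were kept, since the rule has no such filter; scrublet in scanpy 1.11.5 (Python 3.11.15) called 77 Female (6.40%) and 163 Male members (9.43%), which were left out in an alternative. Alternatives also changed the sum needed for membership, left C7 out of it, and varied the gene minimum, the CPM added, the gene filters, the scaling and the library block, and 1 left out barcodes with markers of another class after the data had been seen. Intervals are exact at 95% and cover counting error only.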

Additional observations from a re-analysis of the deposited data

Results flagged for a closer look

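For 2 genes named in the report the GFP-only over tdTomato-only ratio differed between C7/Scara5 nuclei and other fibroblast-gated nuclei by a test of that difference. Lvrn had an interaction log2 value of -2.33 (edgeR adjusted p = 0.00241), with the reporter groups in opposite order in the members and in the others. Fgf10 had -1.97 (edgeR adjusted p = 0.0161), being higher in GFP-only nuclei of both groups and by more in the others. In Female and Male members, endothelial markers stood at 320 and 593 CPM in GFP-only nuclei and at 1468 and 1915 CPM in tdTomato-only nuclei. In the other fibroblast-gated nuclei they stood at 1222 and 2364 CPM in GFP-only and at 4881 and 6098 CPM in tdTomato-only nuclei. The comparison group thus differed in make-up by reporter, and the part of this in the interaction was not tested. Without nuclei carrying markers of another class the interaction values were -1.41 and -1.24 and neither gene passed.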

How the results depend on the processing

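Leaving out barcodes with markers of another class, an alternative chosen after seeing the data, gave member shares of 49.7% Female and 64.5% Male, GFP shares of 68.2% and 70.5%, 20 genes higher and 69 lower than in other fibroblasts, 71 up and 78 down by reporter, and 1 up and 0 down for the interaction (487 at an unadjusted p under 0.05). It turned the mean log2 ratio of Nrg1 to 0.57, Thbs1 to 0.049, Otogl to 0.17, Klhl6 to 0.19 and Unc5d to 0.16. A sum of 5 or more gave member shares of 35.5% and 43.8% and 65 genes up by reporter, and a sum without C7 gave shares of 35.7% and 41.7%. Without called doublets the GFP shares were 64.7% and 65.9%, the reporter counts 30 up and 97 down, and the interaction counts 73 up and 201 down.

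With 20 CPM added, 44 genes were higher and 191 lower than in other fibroblasts, and 7 higher and 17 lower in Female members; a filter of 100 UMIs and 50 CPM gave 11 and 27 between the sexes. With 1 library left out, 112 to 220 genes were higher and 440 to 448 lower than in other fibroblasts, by size in the library that remained. By reporter, DESeq2 gave 8 up and 80 down, and a 200 UMI minimum 47 up and 137 down. For the interaction a 10 UMI minimum gave 13 up and 103 down and a 200 UMI minimum 1 up and 35 down. Without the library block, the replicate block of this design, 10 genes were up and 127 down by reporter, and 0 up and 0 down for the interaction by edgeR (917 at an unadjusted p under 0.05), against 5 and 50 by DESeq2 with the block. No paired analysis was possible between the sexes because each has 1 library. Of the named genes' other alternatives, 255 of 351 kept their direction and size class against other fibroblasts and 157 of 200 between the sexes. The causes of these shifts were not tested. Only 2 libraries, with 151 to 323 nuclei per reporter group in the members, limit the precision of all of these values.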

Other observations

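Of 13 retinoid handling genes 0 were at least 2-fold higher or lower than in other fibroblasts in both libraries. Of 29 hormone and growth factor receptors Ntrk2 was higher and S1pr1, F2r, Erbb4 and Fgfr3 lower, beside 1.12% and 4.31% of all genes, and among 26 measured without nuclei carrying markers of another class, 1 was higher and 0 lower. Of 20 preadipocyte and lipid genes 4 were higher (Apod and the transporter genes Abca6, Abca9 and Abca8a) and 1 lower (Apoe), and 0 of 19 were higher or lower without nuclei carrying markers of another class. Apod, a lipocalin, had 46.3 CPM in Female members, against 15.4 CPM in other fibroblasts, and 55.5 CPM in Male members, against 17.4 CPM. Apoe, an apolipoprotein, had 241 CPM against 740 CPM and 231 CPM against 727 CPM, but log2 ratios of 0.34 and 0.53 without nuclei carrying markers of another class.

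Between the libraries, 12 of 14 chemokine and cytokine genes and 19 of 24 receptors were above 0 in Female over Male members, beside 3773 of 7769 genes outside the rule, with a median log2 ratio of 0.24 for each list and of 0.20 and 0.18 in other fibroblasts. Npr3, which clears natriuretic peptides, had 23.4 CPM in Female and 58.6 CPM in Male members. Of 9 immediate early genes 8 were below 0, with a median of -0.24.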
